A study of Mus musculus with 8 samples.

Results

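The AP-1 transcription factor genes were examined in fibroblasts that had begun reprogramming with NANOG or with a NANOG fusion that carries a BRG1-binding domain. The 9 genes were Fos, Fosb, Fosl1, Fosl2, Jun, Junb, Jund, Atf3 and Batf, chosen by name from the AP-1 family, of 21911 protein-coding genes on the assembled chromosomes. For each gene, all peaks in the gene body and 20 kb on each side were taken. The study used CUT&Tag: a transposase is tethered to an antibody bound on chromatin and cuts and tags the DNA around it, which is then sequenced. The cells were mouse embryonic fibroblasts (MEFs) at day 5 of reprogramming.

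All cells received Oct4 by retrovirus. The NanogWT arm also received Nanog (labelled Nanog+Oct4), and the NanogBiD arm received Nanog with the BRG1-interacting domain of SS18 joined to its N-terminus (labelled NanogN70+Oct4). That the label NanogN70 stands for NanogBiD was taken from the study's description of the fusion. Per its methods, the MEFs were taken from E13.5 embryos of OG2 males, which carry a GFP reporter driven by Oct4 regulatory sequence, and 129 females. The populations were infected in bulk, so each list averages over cells at different stages of reprogramming. The targets were the FLAG tag on the introduced NANOG, the ATPase BRG1 (Smarca4), and the histone marks H3K27ac and H3K4me1. Each of the 4 targets gave 1 list per arm, made from merged replicates, so no test between arms was possible and no difference could be set against the spread between cultures. H3K27ac peaks lay at the start sites of 6 of 7 fibroblast marker genes in both arms (the 7 genes were Col1a1, Col1a2, Col3a1, Vim, Thy1, Prrx1 and Twist2, and Prrx1 had none). Heights at 2 of the 6 were over 1.5-fold lower in NanogBiD, at Thy1 (44 and 26 tags) and Twist2 (23 and 15), and those of the other 4 were within that fold. Of 3 epithelial markers 0 had such a peak in NanogWT and 1 in NanogBiD (Krt8). The counts were 0 and 2 of 3 for endothelial genes (Cdh5 and Kdr), 0 and 1 of 3 for blood genes (Ptprc), and 1 and 2 of 3 for neural genes (Map2, with Tubb3 in NanogBiD). Peaks of these genes in NanogBiD alone had 11 tags at Krt8, 11 at Cdh5, 10 at Kdr, 24 at Ptprc and 15 at Tubb3. The H3K27ac list was also longer in NanogBiD (42598 peaks) than in NanogWT (35452). Of all genes 59.9% and 57.1% had a promoter peak in these lists. The part of other cell types in the values below was not tested.

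AP-1 is a family of dimers of basic leucine zipper proteins. FOS proteins pair with JUN proteins to bind a short palindromic site, and members of the ATF and BATF groups join the same network. Several of the genes, above all Fos, Fosb, Jun, Junb and Atf3, are immediate early genes that are switched on within minutes by serum, stress or kinase signalling. AP-1 sites are abundant in the active enhancers of fibroblasts, and AP-1 proteins are known to help keep the somatic state during reprogramming.

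Signal is given as the summit height, the number of tags piled up at the highest point of a peak. Heights were not scaled to sequencing depth, and the depth of the lists was unknown. Heights at regions called in both arms differed between the arms, with a genome-wide median log2 ratio (NanogBiD over NanogWT) of 0.15 in the FLAG lists, 0.14 in those of BRG1, 0.08 in those of H3K27ac and -0.18 in those of H3K4me1. Values for the AP-1 genes are therefore set beside those of all protein-coding genes handled in the same way. Intervals are 95% intervals that cover counting error only. Where a list has no peak, none was called there, which does not show that signal was absent.

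The FLAG summits of the regions on which the results turn are printed as 150 bases of mm10, plus strand, centred on the summit of the list in which FLAG was higher. Capitals mark matches to the following motifs, or to their reverse complements. The AP-1 site was searched as TGAGTCA. The cyclic AMP response element (CRE) was TGACGTCA, and a variant of it TGACATCA. The CCAAT box was searched by its own letters and the GC box as GGGCGG. The OCT octamer was ATGCAAAT, the TEAD site GGAATG and the RUNX site TGTGGTT. The CArG box is the site of serum response factor. A match to one motif could overlap a match to another. The CRE variant was added after the sequence at Jun had been seen. The first 4 sequences are the promoter summits of Fos, Jun, Jund and Atf3, and the fifth is the tallest distal site, upstream of Fos. The next 3 hold AP-1 sites, and the last is the Batf site bound in NanogWT but not called in NanogBiD.
Fos promoter, chr12:85473613-85473762: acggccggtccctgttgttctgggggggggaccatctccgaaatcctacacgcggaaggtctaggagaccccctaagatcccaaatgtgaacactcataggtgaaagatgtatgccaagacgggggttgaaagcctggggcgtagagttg
Jun promoter, chr4:95052241-95052390: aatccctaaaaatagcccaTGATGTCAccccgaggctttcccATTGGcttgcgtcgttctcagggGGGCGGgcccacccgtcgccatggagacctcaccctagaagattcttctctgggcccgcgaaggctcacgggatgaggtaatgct
Jund promoter, chr8:70698597-70698746: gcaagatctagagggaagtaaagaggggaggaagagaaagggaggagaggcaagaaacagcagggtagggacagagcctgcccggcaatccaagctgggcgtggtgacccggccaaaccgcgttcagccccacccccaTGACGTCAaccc
Atf3 internal promoter, chr1:191183517-191183666: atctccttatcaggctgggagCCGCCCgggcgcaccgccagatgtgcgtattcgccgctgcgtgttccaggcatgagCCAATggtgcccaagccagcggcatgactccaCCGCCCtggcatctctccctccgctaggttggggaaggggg
Fos upstream region, chr12:85455388-85455537: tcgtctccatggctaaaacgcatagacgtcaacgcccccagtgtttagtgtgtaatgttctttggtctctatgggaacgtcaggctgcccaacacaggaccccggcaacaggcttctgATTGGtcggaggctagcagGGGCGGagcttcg
Fosb upstream region, chr7:19327242-19327391: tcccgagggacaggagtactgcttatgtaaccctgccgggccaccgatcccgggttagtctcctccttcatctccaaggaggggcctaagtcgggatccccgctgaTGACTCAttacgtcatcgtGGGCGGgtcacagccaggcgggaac
Atf3 intron, chr1:191189965-191190114: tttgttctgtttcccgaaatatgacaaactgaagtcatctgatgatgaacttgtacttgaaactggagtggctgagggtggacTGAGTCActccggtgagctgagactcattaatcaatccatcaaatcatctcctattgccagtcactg
Junb window, intron of Rnaseh2a, chr8:84961784-84961933: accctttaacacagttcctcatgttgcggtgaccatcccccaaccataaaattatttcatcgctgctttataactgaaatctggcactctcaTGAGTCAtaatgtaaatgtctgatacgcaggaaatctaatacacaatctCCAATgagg
Batf intron, chr12:85703459-85703608: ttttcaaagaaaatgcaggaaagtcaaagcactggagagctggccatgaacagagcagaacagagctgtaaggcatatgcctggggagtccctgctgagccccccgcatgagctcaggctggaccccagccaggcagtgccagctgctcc
None of these 9 stretches overlaps an exon in the GENCODE annotation.

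At the promoters, taken as 2 kb either side of an annotated start site, 7 of the 9 genes had FLAG and BRG1 peaks in both arms, beside 46.9% of all protein-coding genes. FLAG was higher and BRG1 lower in NanogBiD at 6 of these 7, Fos, Fosl2, Jun, Junb, Jund and Atf3. Over all 10273 promoters with both peaks in both arms, 24.6% showed that combination. Once the genome-wide shift was subtracted, it held at 5 (28.0% of all promoters), since FLAG at Atf3 then had a log2 ratio of -0.06 in place of 0.09. It did not hold for the score, the peak caller's measure of significance. With the highest score in place of the height, 1 of the 7 promoters (Atf3) had FLAG higher and BRG1 lower, beside 19.9% of all, with FLAG scores higher at 5 (51.3% of all promoters) and BRG1 scores lower at 2 (44.0%). The values below are heights. Fosb was the exception, and Fosl1 and Batf had no FLAG peak at their promoters.

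The JUN genes encode the partners that every FOS protein needs for DNA binding. At the Jun promoter (gene on chr4:95049034-95052222, minus strand) FLAG reached 46 tags in NanogWT and 55 in NanogBiD (ratio 1.196, 0.794 to 1.81). BRG1 there was 45 and 42 tags (0.933, 0.598 to 1.45). Jun was the tallest of the 9 promoters for FLAG, above 98.0% of FLAG-bound promoters in the first arm and 99.4% in the second. Its FLAG summit lay 94 bp upstream of the start site. The sequence printed above for it holds the CRE variant, a site of the kind known to bind JUN with ATF2, together with a CCAAT box and a GC box.

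At Junb (chr8:84974484-84978718, minus strand), whose product is known as a weaker activator than JUN, FLAG was 19 tags in NanogWT and 32 in NanogBiD (1.68, 0.926 to 3.14). BRG1 was 30 and 24 tags (0.800, 0.448 to 1.42). At Jund (chr8:70698949-70700616, plus strand), which in most cells is expressed steadily rather than induced, FLAG was 24 and 41 tags (1.71, 1.01 to 2.96) and BRG1 41 and 37 (0.902, 0.563 to 1.44). The lower limit for FLAG at Jund, a log2 ratio of 0.01, lay below the genome-wide FLAG shift of 0.15. Junb and Jund were the pair whose FLAG heights were higher by 1.5-fold or more in NanogBiD. Of all genes with FLAG in both arms, 16.8% had a tallest window summit at least 1.5-fold higher in NanogBiD and 3.38% at least 1.5-fold lower. Among the AP-1 windows the counts were 2 (Junb and Jund) and 0 of 9, and the summit counted for Junb was the one nearest to Hook2. The Jund summit sequence holds a CRE, which 0.480% of FLAG summit windows near protein-coding genes held in NanogWT and 0.514% in NanogBiD.

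Among the FOS genes, the Fos promoter (chr12:85473890-85477273, plus strand) had 28 FLAG tags in NanogWT and 32 in NanogBiD (1.14, 0.667 to 1.97). BRG1 at Fos was 33 and 23 tags (0.697, 0.391 to 1.22), the lowest ratio among the 7 promoters. Fosl2, which encodes FRA-2, a more lasting partner of JUN (chr5:32135801-32157842, plus strand), had 31 and 42 FLAG tags (1.355, 0.832 to 2.23) and 44 and 34 BRG1 tags (0.773, 0.479 to 1.24). In NanogWT its BRG1 peak was above 98.9% of promoters with a BRG1 peak, and in NanogBiD above 93.8%. At Fosb (chr7:19302696-19310051, minus strand) FLAG was 20 and 19 tags (0.95, 0.480 to 1.88) and BRG1 16 and 18 (1.125, 0.541 to 2.36), near the median promoter for both. Fosl1 encodes FRA-1 (chr19:5447547-5455946, plus strand). Its promoter had no FLAG peak in either arm, 11 BRG1 tags in NanogWT and none called in NanogBiD, and 12 and 13 tags of H3K27ac.

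The 2 genes outside the FOS and JUN groups differed from each other. Atf3, a stress-induced gene (chr1:191170296-191218039, minus strand), has annotated start sites at its far end and within the gene. Its highest promoter peak, 252 bp from the internal start, had 30 and 32 FLAG tags (1.07, 0.628 to 1.82) and 32 and 29 BRG1 tags (0.906, 0.529 to 1.55). The start of the long transcript had a second FLAG peak of 23 and 30 tags, with 22 and 24 of BRG1. Batf, best known from lymphocytes (chr12:85686669-85709087, plus strand), had only H3K4me1 at its promoter, 16 tags in NanogWT and 10 in NanogBiD (0.625, 0.253 to 1.47), with no FLAG, BRG1 or H3K27ac peak in either arm.

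**Figure D1:**
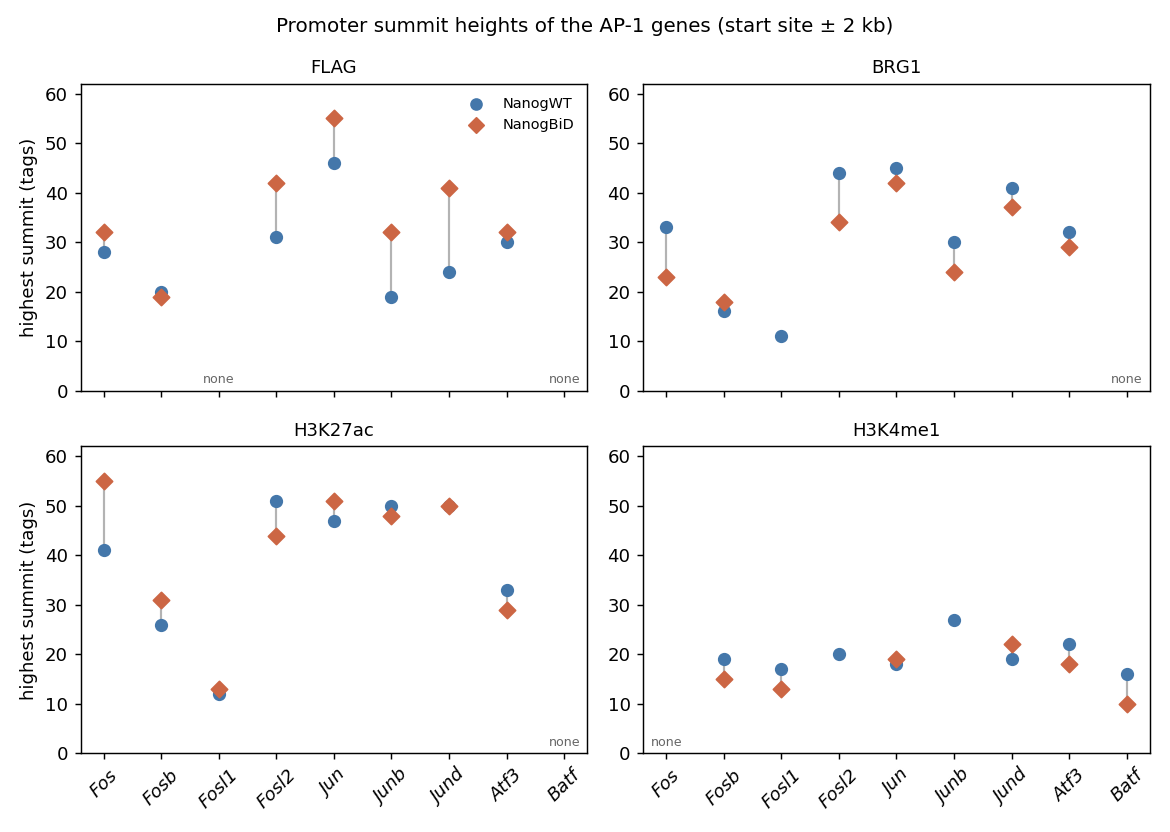
Height in tags of the highest summit within 2 kb of a start site of each AP-1 gene, for each of the 4 targets; circles are NanogWT, diamonds NanogBiD, and a single symbol means that a peak was called in that arm only. The NanogBiD diamonds lie above the circles for FLAG and below them for BRG1 at Fos, Fosl2, Jun, Junb, Jund and Atf3, and "none" marks a promoter with no peak in either arm.

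The opposite movement of both targets was set on a single scale as the FLAG log2 ratio minus the BRG1 log2 ratio at the same promoter. The difference was 1.07 at Junb (-0.15 to 2.31), 0.92 at Jund (-0.12 to 1.97), 0.81 at Fosl2 (-0.19 to 1.81) and 0.71 at Fos (-0.44 to 1.87). It was 0.36 at Jun (-0.53 to 1.25), 0.24 at Atf3 (-0.87 to 1.34) and -0.24 at Fosb (-1.72 to 1.22). Each interval includes 0, so at no single promoter was the difference larger than counting error allowed. The median was 0.71 over the 7 promoters and 0.11 over all 10273. Member promoters are taller than most, so the background was also restricted, after the data had been seen, to promoters with a mean height of at least 20 tags for both targets. There 25.5% of 3814 promoters had FLAG higher and BRG1 lower, beside 6 of 6 AP-1 promoters. That minimum leaves out Fosb, the 1 promoter of the 7 without the combination. Taken singly, FLAG was higher at 58.2% of all promoters with both targets and BRG1 lower at 45.2%.

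**Figure D2:**
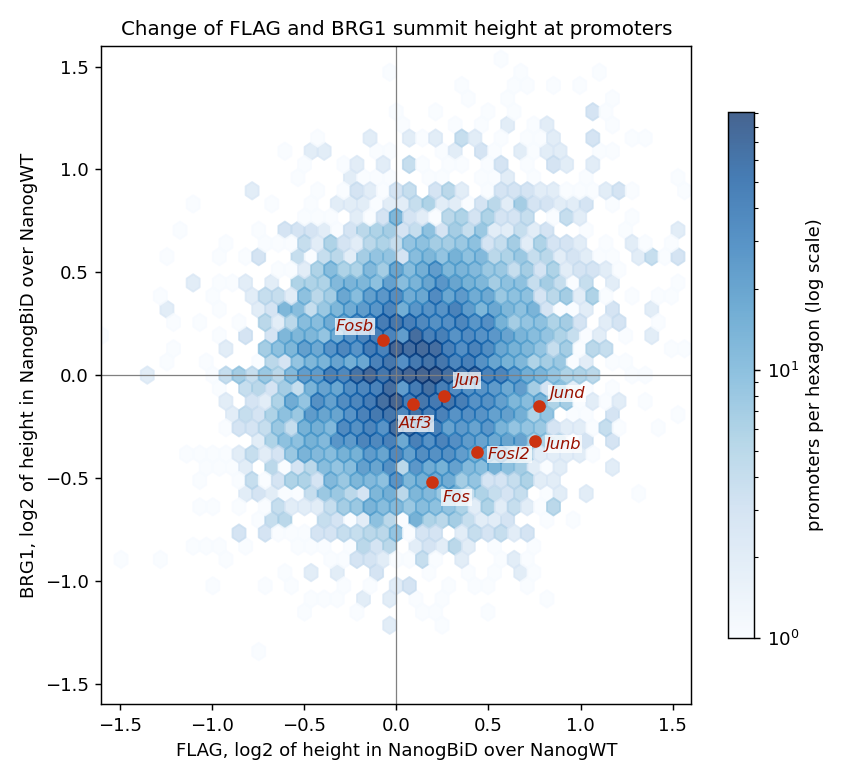
Change of FLAG height (horizontal axis) against change of BRG1 height (vertical axis), each as log2 of NanogBiD over NanogWT, at promoters where each target was called in each arm; shaded hexagons count all promoters on a log scale (those beyond 1.6 are not drawn) and red points are the 7 AP-1 promoters. Fos, Fosl2, Jun, Junb, Jund and Atf3 lie in the lower right part, which holds 24.6% of all promoters, and Fosb lies at the upper left.

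The histone marks did not follow one direction. H3K27ac, a mark of active promoters and enhancers, was present at 8 of 9 promoters in both arms, higher in NanogBiD at 4, equal at 1 and lower at 3. Of all genes 57.1% had such a promoter peak in NanogWT and 59.9% in NanogBiD, and of those with one in both arms 57.3% were higher and 33.5% lower. At Fos it was 41 tags in NanogWT and 55 in NanogBiD (1.34, 0.879 to 2.06), where BRG1 was lower. At Jund it was 50 tags in both, at Junb 50 and 48, at Jun 47 and 51, and at Fosl2 51 and 44. The median log2 ratio over the 8 was 0.06, beside 0.08 over all promoters. H3K4me1, a mark of enhancers and of promoter flanks, was called at 8 of the promoters in NanogWT and 6 in NanogBiD, beside 63.3% and 62.0% of all genes. It was called in NanogWT alone at Fosl2, with 20 tags, and at Junb, with 27, and in neither arm at Fos. At the 6 promoters with H3K4me1 in both arms the log2 ratio ran from -0.68 at Batf to 0.21 at Jund, with a median of -0.32 beside -0.14 over all promoters.

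Over the whole windows, the tallest FLAG summit of a locus was higher in NanogBiD in 8 of 9 loci and equal at Fosb, with a median log2 ratio of 0.26 beside 0.17 over all genes. For BRG1 it was lower in 7 loci, higher at Fosb and equal at Fosl1, with a median of -0.13 beside 0.07. No locus changed by 1.5-fold for BRG1, where 12.8% of genes were higher by that fold and 2.75% lower. For H3K27ac 6 loci were higher, 1 equal and 2 lower (median 0.11 beside 0.06), and none passed 1.5-fold, beside 4.73% of genes higher and 1.2% lower. For H3K4me1, 3 loci were higher, 1 equal and 4 lower of the 8 with a peak in both arms (median -0.07 beside -0.16). Only Junb, with 27 tags in NanogWT and 18 in NanogBiD, was lower by 1.5-fold, beside 6.62% of all genes lower and 0.549% higher. Its tallest H3K4me1 summits lay at different places, at the Junb promoter in NanogWT and near a start site of Rnaseh2a in NanogBiD. Over all genes the tallest summit was higher in NanogBiD in 64.8% and lower in 29.1% for FLAG, with 53.3% and 37.7% for BRG1, 54.8% and 36.4% for H3K27ac, and 22.3% and 68.5% for H3K4me1. These differences between the AP-1 loci and all genes were not tested. With scores in place of heights the median for BRG1 was 0.03 and that for H3K27ac -0.20, so the sign of these medians depended on the measure. After the genome-wide shift was subtracted, the median for H3K4me1 was 0.11 and the directions changed. FLAG was then higher in 6 loci and lower in 3 (Fosb, Atf3 and Batf), beside 51.7% and 47.6% of all genes. BRG1 was lower in 9 of 9 loci, beside 57.2%. H3K27ac was higher in 5 and lower in 4, beside 45.1% and 54.4%, and H3K4me1 higher in 5 and lower in 3, beside 52.1% and 47.0%.

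With whole peaks compared, most regions of the AP-1 loci were called in both arms. With windows of 100 bp around the summits in their place, the shared part was 53.2% for FLAG (37.3% over all genes), 43.2% for BRG1 (29.6%), and, in the histone marks, 39.5% for H3K27ac (34.5%) and 38.6% for H3K4me1 (29.9%). Among peaks of 15 tags or more it was 48.6% for H3K4me1, beside 42.4%. Among peaks whose score reached 100 it was 57.1% for FLAG, close to the 53.2% over all genes. For whole peaks of FLAG, 32 of 40 regions were shared (80%, 65.2 to 89.5), beside 52.9% over the windows of all genes. In NanogBiD only were 5 regions (12.5%), beside 31.6% of all regions, and in NanogWT only 3 (7.5%), beside 15.5%. For BRG1, 24 of 39 regions were shared (61.5%, 45.9 to 75.1), beside 46.4%. BRG1 was called in NanogBiD only at 9 regions (23.1%), beside 42.8% of all regions, and in NanogWT only at 6 (15.4%), beside 10.8%. The windows held 30 BRG1 peaks in NanogWT and 33 in NanogBiD (ratio 1.10, 0.65 to 1.87), while over all genes the ratio was 1.56. Among the top 20000 peaks by score the ratio in the AP-1 windows was 0.9 for BRG1 and 1.07 for H3K4me1. With windows of 5 kb it was 0.889 for FLAG. Each lies on the other side of 1 from the values here. The first setting keeps 20000 peaks in each arm, so the ratio of the whole lists is 1 by construction. It cannot tell whether peak numbers differ between the arms. No ratio over all genes is given for either setting. The FLAG numbers were 35 and 37 (1.06, 0.648 to 1.73), beside 1.24. H3K27ac had 30 peaks in each arm, a ratio of 1 (0.5824 to 1.717) beside 1.159 over all genes. Of its 33 regions 26 were shared (78.79%, beside 59.91%), 3 were in NanogBiD only (beside 26% of all regions) and 4 in NanogWT only (beside 14.1%). H3K4me1 had 43 and 36 peaks, a ratio of 0.837 (0.522 to 1.33) beside 0.798. Of its 47 regions 32 were shared (68.1%, beside 50.35%), 4 were in NanogBiD only (beside 16.3%) and 11 in NanogWT only (beside 33.4%).

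**Figure D3:**
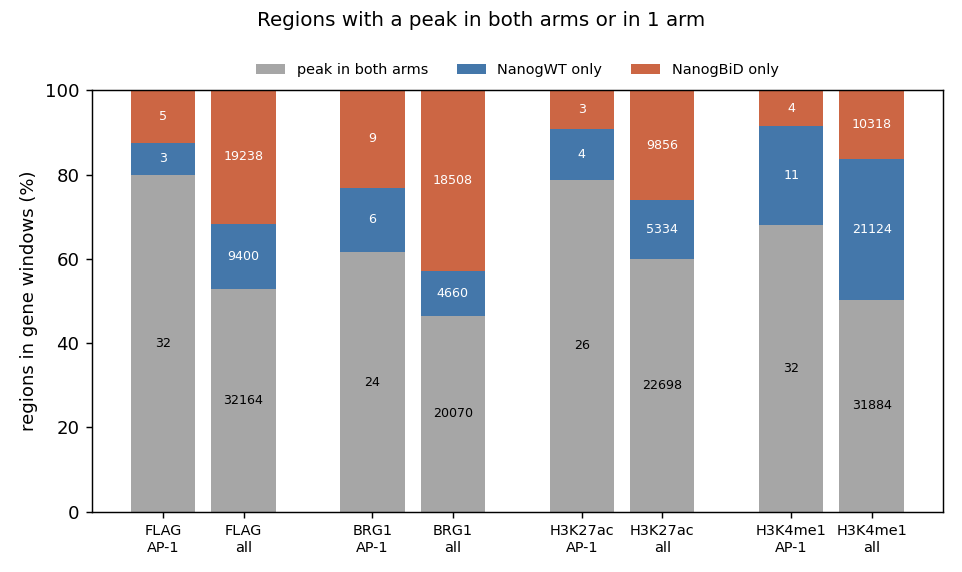
Share of regions in gene windows, in percent, with a peak in both arms (grey), in NanogWT only (blue) or in NanogBiD only (orange), for the 9 AP-1 genes and for all protein-coding genes; the numbers in the bars are counts of regions. With whole peaks the shared part is larger for the AP-1 genes for each of the 4 targets. It is 80% beside 52.9% for FLAG and 61.5% beside 46.4% for BRG1. Among regions near start sites alone it is larger for FLAG only. With windows of 100 bp around the summits it is 53.2% beside 37.3% for FLAG and 43.2% beside 29.6% for BRG1. Among peaks whose score reached 100 it is 57.1% beside 53.2% for FLAG.

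FLAG peaks in these windows often coincided with BRG1. In NanogWT 26 of 35 FLAG peaks overlapped a BRG1 peak (74.3%, 57.9 to 85.8), beside 49.9% over all gene windows. In NanogBiD it was 29 of 37 (78.4%, 62.8 to 88.6), beside 67.2%. Merging all 8 lists gave 56 regions, of which 16 held a peak of every list (28.6%, beside 14.4% of 86574 regions over all gene windows), 8 held H3K4me1 alone (14.3%, beside 21.5%) and 18 lay nearest to a gene that is not an AP-1 gene. Of the 56, 22 had FLAG and BRG1 in both arms (39.3%, beside 20.6%). FLAG in both arms with BRG1 in NanogBiD alone was found at 5 (8.93%, beside 10.2%), and with BRG1 in NanogWT alone at 2 (3.57%, beside 1.25%). At 1 region (1.79%) both were called in NanogBiD alone, beside 7.55%, and at 1 in NanogWT alone, beside 1.23%.

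The Fos locus held 8 of the regions, with no other protein-coding gene in its window. The tallest FLAG and BRG1 peaks were not at the promoter but 18.4 kb upstream, where FLAG was 48 tags in NanogWT and 56 in NanogBiD, BRG1 48 and 46, H3K27ac 52 and 54, and H3K4me1 28 in both. A GC box and a CCAAT box lie in the sequence printed for it. At 11.5 kb upstream, FLAG was lower in NanogBiD (41 and 31 tags) and BRG1 higher (17 and 27), the reverse of the promoter. At 5.8 kb upstream FLAG was 19 and 34 tags beside H3K4me1, with no BRG1 or H3K27ac peak. Just 3′ of the gene FLAG had 23 tags in NanogWT and no peak in NanogBiD, while BRG1 was called in both (15 and 18). At 12.4 kb downstream of the start all 4 targets were called in both arms, with FLAG at 29 and 33 tags and BRG1 at 26 and 30.

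Jun had few regions beside its promoter. The tallest, 11.1 kb upstream within the antisense gene Junos, was called for every target in both arms, with FLAG at 17 and 15 tags and BRG1 at 14 and 13. Jund had 1 distal region of all targets, 16.7 kb upstream and nearest to Lsm4, with FLAG at 12 and 13 tags and BRG1 at 11 and 15.

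The Junb window was crowded, with 6 of 7 regions nearest to Rnaseh2a or Hook2, and values there cannot be assigned to Junb. The tallest of them, 10.8 kb upstream and 1067 bp from a Hook2 start site, had FLAG at 21 and 34 tags and BRG1 at 20 and 23. At 6.5 kb upstream, a region had an H3K27ac peak of 37 tags in NanogWT and none called in NanogBiD. Within Rnaseh2a, the region whose AP-1 site is printed above had FLAG in NanogBiD alone (13 tags) and BRG1 in NanogWT alone (14 tags). Another, 227 bp from a start site of Rnaseh2a, had H3K27ac (28 tags) and BRG1 (11 tags) in NanogBiD alone, with FLAG in both (12 and 13).

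At Fosb the promoter was flanked by regions called for FLAG, BRG1 and H3K27ac in both arms. H3K27ac was 20 tags in NanogWT and 32 in NanogBiD at 9.98 kb upstream, and 15 and 24 at 17.3 kb upstream, where FLAG was 12 and 17 and BRG1 12 and 10. The upstream site carries the AP-1 match shown for Fosb. At Fosl1, 5 of the 9 regions lay nearest to another gene. The region with FLAG and BRG1 in NanogBiD alone (9 and 12 tags) lay in an exon of Fibp, with H3K27ac (18 tags) and H3K4me1 (17 tags) also in that arm alone. The tallest FLAG peaks of the window, 24 tags in NanogBiD, lay 191 bp from a start site of Efemp2 (13 tags in NanogWT) and 14.2 kb upstream of Fosl1 (17 tags in NanogWT).

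Atf3, Fosl2 and Batf held the distal sites where FLAG was called in both arms and BRG1 in NanogBiD alone, which were singled out after their values had been seen. In an Atf3 intron, FLAG was 13 tags in NanogWT and 22 in NanogBiD, and BRG1 had 18 tags in NanogBiD and no peak in NanogWT. The sequence there carries an AP-1 site near its centre. At the 3′ part of Atf3, FLAG was 10 and 17 tags, and BRG1 had 14 tags in NanogBiD alone. At 32.7 kb downstream of the Fosl2 start FLAG was 13 and 23 tags and BRG1 7 in NanogBiD alone. In Batf, 8.3 kb into the gene, FLAG was 9 and 13 tags and BRG1 11 in NanogBiD alone. None of these 4 sites had an H3K27ac peak in either arm.

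Batf also held the opposite pattern. At 16.9 kb into the gene, FLAG (12 tags), BRG1 (12 tags) and H3K4me1 (26 tags) were called in NanogWT, and no target was called in NanogBiD. The neighbouring region, 19.2 kb into the gene, had FLAG (12 and 11 tags), H3K27ac (25 and 27) and H3K4me1 (23 and 22) in both arms, with BRG1 called in NanogWT alone (12 tags). At 37.1 kb, downstream of the gene, BRG1 was again called in NanogWT alone (9 tags) beside FLAG of 10 and 9 tags. Across the Batf window BRG1 therefore had 3 peaks in NanogWT and 1 in NanogBiD, all of at most 12 tags.

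**Figure D4:**
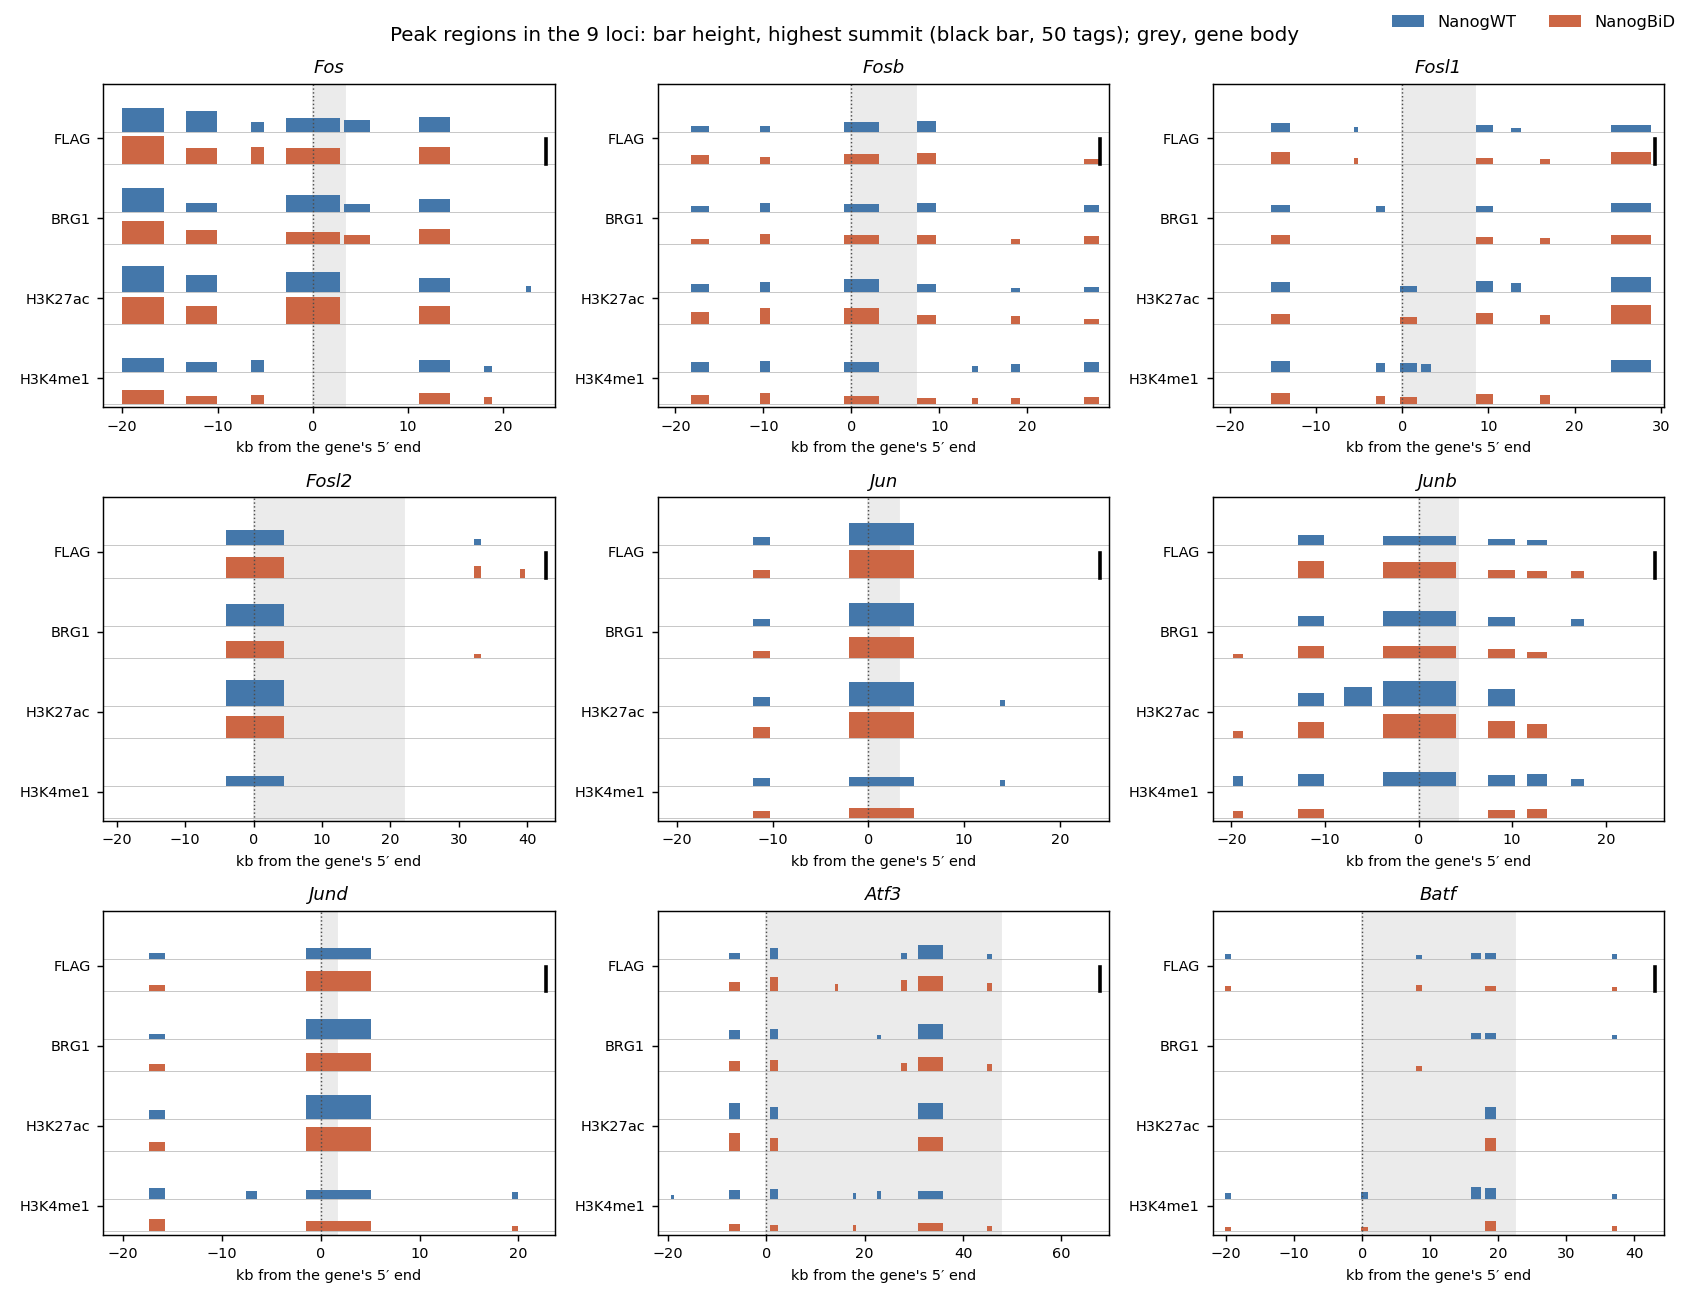
Regions of peaks along the windows of the 9 AP-1 genes, with distance from the gene's 5′ end in kb on the horizontal axis and, for each target, NanogWT above NanogBiD; a bar spans the region merged over all 8 lists and its height is the highest summit in tags (black scale bar, 50 tags), a missing bar means that no peak was called, and grey marks the gene body. Fos shows tall bars both at the start and 18.4 kb upstream, while in Atf3, Fosl2 and Batf small FLAG bars in both arms stand over BRG1 bars in NanogBiD only.

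Regions near the start site of any protein-coding gene and distal regions differed for BRG1. Of the 13 start-site regions of the AP-1 windows with BRG1 in both arms, 7 were lower in NanogBiD, 1 equal and 5 higher (median log2 ratio -0.08), beside 45.8% lower and 43.7% higher over all genes. Of the 11 distal regions, 3 were lower, 1 equal and 7 higher (median 0.21), beside 2416 lower and 6104 higher of 9252 over all genes. Over all genes the medians were 0 at start sites and 0.26 at distal regions, so the same order was present there. For FLAG the medians were 0.26 at start sites and 0.24 at distal regions, beside 0.12 and 0.18 over all genes. Near start sites the shared regions were 13 of 16 for FLAG (12082 of 16859 over all genes) and 13 of 19 for BRG1 (10818 of 14981). They were 15 of 19 for H3K27ac (12485 of 15364) and 14 of 21 for H3K4me1 (13879 of 20021). Distal ones were, in that order, 19 of 24 (20082 of 43943), 11 of 20 (9252 of 28257), 11 of 14 (10213 of 22524) and 18 of 26 (18005 of 43305). Near start sites the shared part was larger than over all genes for FLAG only. The difference between places was not tested.

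Motif matches near the FLAG summits of the AP-1 windows were few. The AP-1 site was in 4 of 35 windows of 150 bases in NanogWT (11.4%, beside 7.90% of all FLAG summits near genes) and 4 of 37 in NanogBiD (10.8%, beside 10.3%). At the tallest summit of each of the 40 regions with FLAG, matches lay upstream of Fosb, in the Atf3 intron, in the Junb window and in an exon at the Fosl2 start. That Junb region had no FLAG peak in NanogWT, so at least 1 of the 4 NanogWT matches lay at another summit. The GC box was in 9 of 35 windows in NanogWT (25.7%, beside 12.5%) and 7 of 37 in NanogBiD (18.9%, beside 10.7%). The OCT octamer was in 1 window in NanogWT and 0 in NanogBiD, beside 2.29% and 3.18% of all. RefSeq promoters (GRCm38.p6) were searched over the 250 bases before the start, and held 8 of the 9 genes and not Fosl1. A GC box was found in 6, beside 32.9% of 27025 promoters, and an AP-1 site in 0, beside 4.43%. A CArG box was in 0 of the 8, beside 1.4%, and the CRE variant in 1, at Jun, beside 3.02%. Sites further upstream were outside the stretch searched, so a count of 0 does not show that a promoter lacks the motif. For Jund the RefSeq start used lies upstream of the GENCODE start.

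The same comparison was made for other genes of the AP-1 network. FLAG was higher and BRG1 lower by height at 5 of 13 promoters of AP-1 related leucine zipper partners, 2 of 12 of upstream kinases and serum response regulators, 4 of 10 of other immediate early genes and 1 of 5 of textbook AP-1 targets in fibroblasts, beside the 24.6% of all promoters. By score the counts were 3 of 13, 3 of 12, 3 of 10 and 0 of 5, beside 19.9% of all. The lists are small, and their difference from the AP-1 genes was not tested. By the tallest BRG1 summit in the window, 0 of 14 partner genes were at least 1.5-fold higher in NanogBiD and 2 lower, beside 12.8% and 2.75% of all genes. These were Batf3, a BATF relative (18 and 11 tags; ratio 0.611, 0.261 to 1.37), and Mafk, a small MAF protein (26 and 16; 0.615, 0.308 to 1.19). The repressor gene Bach2 had 26 and 37 tags (1.42, 0.839 to 2.45). Among 12 upstream genes, 1 was higher and 0 lower: Elk1, a partner of serum response factor, with 17 and 28 tags (1.65, 0.871 to 3.21). Elk4, another such partner, had 23 and 17 tags. Of 11 other immediate early genes none passed 1.5-fold for BRG1 in either direction. The tallest summits were lower in NanogBiD at Ier2 (31 and 23 tags), Dusp1, a phosphatase that switches off MAP kinases (45 and 35), and Zfp36, which destabilises mRNAs (31 and 25). Of 12 AP-1 targets, 10 had BRG1 in both arms, 2 of them higher and 1 lower by that fold. The collagenase gene Mmp13 had 13 and 20 tags (1.54, 0.728 to 3.37), the cytokine gene Il6 14 and 21 (1.5, 0.728 to 3.19) and the cyclin gene Ccnd1 34 and 20 (0.588, 0.321 to 1.05). For FLAG in the same windows, 2 partner genes, 1 upstream gene, 2 other immediate early genes and 2 targets were at least 1.5-fold higher, and 0, 0, 1 and 2 lower, of 14, 12, 11 and 12 genes, beside 16.8% of all genes higher and 3.38% lower.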

How the data were processed

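CUT&Tag was performed by the authors on MEFs at day 5. Per the labels and methods, reads were trimmed (Trim Galore 0.6.4), aligned to mm10 (Bowtie2 2.4.5) and filtered (SAMtools 1.16.1). Replicates were merged before peaks were called with MACS 1.4.2, without a model, with 1 tag kept per position and with no control named. The labels and the methods differ in the kit and in the number of cells per library. The authors deposited a peak list with a significance score for each peak (lowest score 50) and a summit list with the signal, the tag pileup at the summit. Neither is scaled to depth, which is unknown.

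Peaks and summits were joined by name in Python 3.11.15 with pandas 2.3.3. Gene windows were GENCODE gene bodies (release for the same build) with 20 kb on each side. Peaks that overlapped or touched were merged into regions. Promoters were 2 kb either side of any start site of the gene. Shares have Wilson 95% intervals, height and peak number ratios exact binomial 95% intervals, and differences of log2 ratios exact conditional 95% intervals of the odds ratio (SciPy 1.17.1). Sequences were read from the RefSeq copy of GRCm38, and promoter sequences of RefSeq matched 8 of 9 members. The merging and matching steps were tested on 2000 simulated loci, with 0 wrong values.

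The members and lists were chosen with earlier results of these data known. All members were named, together with regions at their promoters, the tallest distal regions and regions with FLAG and BRG1 in 1 arm only, and up to 3 genes of each pathway list with the largest change of BRG1. One result that this rule selects is not reported here. Alternatives kept peaks with scores from 100 upward or the top 20000 peaks by score, or used windows of 5 or 50 kb, 100 bp around summits, a merging gap of 500 bp, peaks nearest to a member, heights centred on the genome-wide shift, and scores for heights.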

Additional observations from a re-analysis of the deposited data

Results flagged for a closer look

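At the 7 AP-1 promoters with FLAG and BRG1 peaks in both arms, the height of one target was higher and that of the other lower in NanogBiD. This was so at 38.2% of all 10273 promoters with both targets. By score it was so at 2 of the 7, Jund and Atf3, beside 44.4% of all. The FLAG log2 ratio minus the BRG1 log2 ratio was 1.07 at Junb, 0.92 at Jund, 0.81 at Fosl2, 0.71 at Fos, 0.36 at Jun, 0.24 at Atf3 and -0.24 at Fosb. With 1 list per target and arm, the difference between the targets was not tested.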

How the results depend on the processing

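No paired analysis was possible because the lists were merged and carry no replicate numbers. The combination of higher FLAG and lower BRG1, found at 6 of 7 promoters by height, was found at 1 by score. The shared part of the regions also moved. For FLAG it was 80% and became 57.1% (53.2%) when scores had to reach 100, 64.3% (49.7%) among the top 20000 peaks by score, 64% (48.3%) with heights of 15 tags or more and 53.2% (37.3%) with windows of 100 bp around the summits, with shares over all genes in brackets here and below. For BRG1 (61.5%) it became 90% (49.7%) among the top 20000 peaks, 81.8% (45.4%) with 15 tags or more and 43.2% (29.6%) with summit windows. For H3K27ac (78.8%) it became 91.3% (66.9%) when scores had to reach 100 and 39.5% (34.5%) with summit windows. For H3K4me1 (68.1%) it became 81.2% (47.6%) among the top 20000 peaks, 48.6% (42.4%) with 15 tags or more and 38.6% (29.9%) with summit windows. The share of FLAG peaks with BRG1 became 100% in NanogWT and 91.7% in NanogBiD among the top 20000 peaks. By score the median log2 ratio of H3K27ac was -0.20. The cause was not tested. The minimum of 15 tags, the promoters of at least 20 tags, and the centred and score versions of the promoter counts were chosen after the data were seen. The other 74 comparisons and all 63 values for single genes moved by less than counting error or 1.5-fold. The sign of the log2 ratio turned in 6 of 52 alternatives for ratios over the members and in 7 of 63 for single genes. Unknown depth and 1 merged list per group limit every value, and the spread between cultures could not be measured.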
